A study of Homo sapiens with 4 samples.

Results

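Transcript levels of 28 genes of cholesterol and fatty acid synthesis were followed through hematopoietic differentiation of human induced pluripotent stem cells. The set comprised 18 enzymes of the route from acetyl-CoA to cholesterol, 4 regulators of that route, the sterol carrier STARD4 and 5 enzymes of fatty acid synthesis. A gene was a member when its symbol in the expression table equalled 1 of these 28 names. All 28 were found, each on 1 row, among 58274 gene identifiers, and all 28 were among the 17137 genes that reached 1 FPKM in any library. FPKM is the number of sequenced fragments scaled to transcript length and library depth, so levels can be compared between genes.

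The 4 libraries came from BC1, which is a single induced pluripotent stem cell line, so the data describe 1 genetic background. One library was made from undifferentiated BC1 cells, and the others from APLNR+ cells of day 2, CD31+CD34+ cells of day 5 and CD43+ cells of day 8. Differentiation used custom mTeSR1 medium with activin A and BMP4 up to day 2 and with VEGF and bFGF from then on. Each population had 1 library and was defined by 1 or 2 surface proteins, so a population may hold several cell types, and no difference below has a replicate check or a p-value.

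The depth recovered from the steps between low FPKM values was 19700000 to 23600000 mapped fragments per library. Between 13554 and 14335 genes had at least 1 FPKM, and mitochondrial genes took 5.80% to 8.16% of the total. The markers fitted the labels: APLNR was at 1073 FPKM in APLNR+ cells and at most 209 FPKM in the others, PECAM1 (CD31) went from 0.303 FPKM in BC1 to 93.1 in CD31+CD34+ cells and was higher still, at 126 FPKM, in CD43+ cells, and SPN (CD43) was at 92.4 FPKM in CD43+ cells against 11.7 FPKM in CD31+CD34+ cells. Summed FPKM of 5 pluripotency genes was 2844 in BC1 and at most 779 elsewhere. Remaining POU5F1, at 573 FPKM, made up most of the sum in APLNR+ cells. The 5 mesoderm markers summed to 2206 FPKM in APLNR+ cells and at most 217 FPKM elsewhere. The 5 endothelial markers summed to 1054 FPKM in CD31+CD34+ cells and at most 186 FPKM elsewhere, and the 5 hematopoietic markers to 1470 FPKM in CD43+ cells and at most 164 FPKM elsewhere.

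Cells build cholesterol from acetyl-CoA through mevalonate, which is turned into isoprenoid units, then into squalene and finally into the sterol ring. The SREBP transcription factors, encoded by SREBF1 and SREBF2, activate the genes of both routes when membrane sterol is low. They are held in the endoplasmic reticulum with SCAP and INSIG proteins when sterol is plentiful, and INSIG1 is itself among their target genes. Fatty acid synthesis starts from the same cytosolic acetyl-CoA, which ACLY releases from citrate. Both routes supply membranes to dividing cells, and the mevalonate route also supplies the lipid anchors of many signalling proteins.

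The 28 genes were well expressed throughout. All 28 had at least 10 FPKM in every library, against 30.0% of the 17137 genes and 36.2% of the 13910 protein-coding ones. Their median level was 52.4, 81.3, 52.5 and 100.8 FPKM in the order of differentiation, BC1 first and CD43+ cells last, whereas the median of all 17137 genes stayed between 6.32 and 7.31 FPKM. Their sum was 2165, 3006, 1929 and 3274 FPKM in the same order, or 0.344%, 0.485%, 0.318% and 0.496% of each library's total. The sum was thus high in APLNR+ and CD43+ cells and low in BC1 and CD31+CD34+ cells. In bulk RNA, fewer cells of a type and less RNA per cell cannot be told apart.

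Changes are differences of log2(FPKM + 1) between successive populations, and a gene is said to have risen or fallen when the change was at least 1 in size. Folds are ratios of FPKM, and the interval after a fold is an exact Clopper-Pearson 95% interval computed from approximate fragments. Such an interval reflects counting error and leaves out any variation between cultures.

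From BC1 to APLNR+ cells, 3 of the 28 genes rose (10.7%) and none fell. Among all 17137 genes, 9.15% rose and 9.32% fell, so the share that rose was near the background, but 23 of the 28 had a change above 0, against 48.7% of all genes. Their median change was 0.51, and that of all genes was 0.00. From APLNR+ to CD31+CD34+ cells, 7 of the 28 fell (25%) and none rose, while 11.4% of all genes fell and 13.0% rose. A change above 0 was seen in 6 of the 28, against 50.7% of all genes. The median change was -0.66 for the 28 genes and 0.01 for all genes. From CD31+CD34+ to CD43+ cells, 11 of the 28 rose (39.3%) and none fell, while 7.63% of all genes rose and 13.5% fell. A change above 0 was seen in 23 of the 28, against 42.6% of all genes. The median change was 0.75 for the 28 genes and -0.08 for all genes. Among the 5148 genes with at least 10 FPKM in every library, as the members had, 4.16% rose at the first step, 5.89% fell at the second and 3.32% rose at the third.

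**Figure D1:**
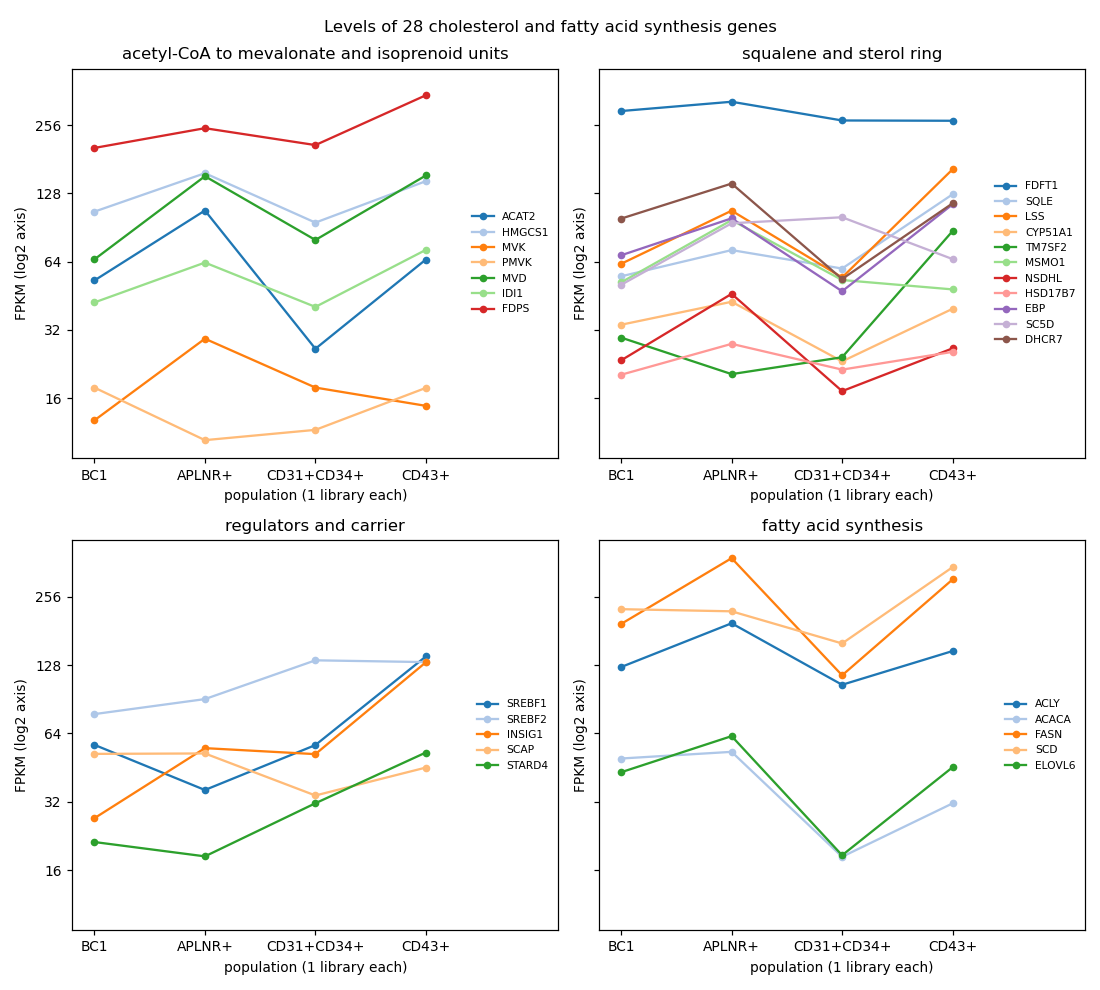
FPKM on a log axis of each of the 28 genes in the 4 libraries, in order of differentiation, with a panel for each role. Most lines go up to APLNR+ cells, down to CD31+CD34+ cells and up again to CD43+ cells. Those of SREBF1, SREBF2, STARD4, PMVK, TM7SF2 and SC5D are higher in CD31+CD34+ than in APLNR+ cells.

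A sequence of up, down and up, with steps of any size, was followed by 18 of the 28 genes (64.3%). Among all 17137 genes 11.2% followed it, and among the 5148 well expressed ones 15.9%. The highest level was in APLNR+ cells for 14 genes and in CD43+ cells for 11, against 22.7% and 24.0% of all genes. It was in BC1 for PMVK and in CD31+CD34+ cells for SC5D and SREBF2, against 27.7% and 25.5% of all genes. CD31+CD34+ cells had the lowest level of 14 genes, against 19.2% of all genes. The lowest level was in BC1 for 8 genes, in APLNR+ cells for 4 and in CD43+ cells for FDFT1 and MSMO1, against 27.8%, 21.6% and 31.4% of all genes. Centring the libraries on the median gene shifted changes by up to 0.19, and then 10 members were highest in APLNR+ and 16 in CD43+ cells. The small changes of SREBF2, FDFT1 and MSMO1 at the third step and of SCAP at the first took the other sign under this centring.

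The regulators are described first. INSIG1 (chromosome 7, 155297776 to 155310235, plus strand, GRCh38) encodes the protein that retains SCAP and its cargo in the endoplasmic reticulum, and it was at 27.1, 55.2, 51.9 and 132 FPKM in BC1, APLNR+, CD31+CD34+ and CD43+ cells. All later values are given in this order. INSIG1 was higher in APLNR+ cells than in BC1, by 2.04-fold (95% interval 1.90 to 2.18), just under the threshold. It hardly moved at the second step, with a change of -0.09, and then rose 2.54-fold (95% interval 2.43 to 2.66). From BC1 to CD43+ cells INSIG1 rose 4.87-fold (95% interval 4.59 to 5.18), and its change of 2.24 was the largest of the 28 over that span.

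SREBF1 (chromosome 17, 17810399 to 17837002, minus strand), whose products mainly drive fatty acid genes, was at 57.0, 36.1, 56.9 and 139.9 FPKM. It was lowest in APLNR+ cells, where it was lower than in BC1 by 1.58-fold (95% interval 1.51 to 1.66), while most of the enzymes were higher there. It was back at its BC1 level in CD31+CD34+ cells and rose 2.46-fold (95% interval 2.38 to 2.54) in CD43+ cells. SREBF2 (chromosome 22, 41833079 to 41907308, plus strand), whose product mainly drives sterol genes, was at 77.9, 90.7, 135 and 132 FPKM. It was 1.48-fold (95% interval 1.45 to 1.52) higher in CD31+CD34+ than in APLNR+ cells, where most enzymes were lower, and its fold at the last step was 0.982, with an interval of 0.960 to 1.005 that included 1. Thus the transcripts of both factors were above their APLNR+ level in the population where 22 of the 28 genes were below theirs. The active factors are cut from membrane proteins, so transcript levels do not show their activity.

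SCAP, the escort of both factors, was at 52.0, 52.3, 34.1 and 45.3 FPKM and did not pass the threshold at any step. STARD4, a cytosolic sterol carrier that is also a known target of the sterol-sensing factors, was at 21.3, 18.4, 31.5 and 52.8 FPKM. Its level was higher in each later population from APLNR+ cells on, and it rose 2.48-fold (95% interval 2.24 to 2.75) from BC1 to CD43+ cells. For the 4 regulators and the carrier together the median change was 0.01, 0.56 and 0.73 at the 3 steps, while their median level was nearly level over the first 3 populations, at 52.0, 52.3 and 51.9 FPKM, and 131.9 FPKM in CD43+ cells. SCAP was lowest in CD31+CD34+ cells, and INSIG1 was slightly lower there than in APLNR+ cells. Exons of SREBF1 overlap those of RAI1 on the opposite strand by 556 bases, and the use of strand is not given in the sources used here, so a part of its fragments is uncertain.

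Promoter windows from RefSeq (GRCh38.p14), from 250 bases before to 50 after each annotated start, were found for 24 of the 28 genes, as 32 windows. The sterol regulatory element, searched as TCACNCCAC on both strands, occurred in the window of 1 of the 24 genes, SREBF2 (4.17%), against 1.53% of 10726 expressed coding genes with a window. CCAAT, the box bound by NF-Y, which acts beside the sterol-sensing factors, occurred in windows of 19 of the 24 (79.2%), against 42.8% of those coding genes. The Sp1 box GGGCGG occurred in 23 of the 24 (95.8%), against 77.0% of those coding genes. The E-box CACGTG occurred in LSS, SC5D, INSIG1 and SCAP (16.7%), against 12.5% of the coding genes. A gene with several windows was counted when any of them held the letters. Counted by window instead, over all 35116 windows, the sterol regulatory element was in 1.13%, CCAAT in 34.6%, the Sp1 box in 45.0% and the E-box in 7.26%. These matches describe the letters only and show no binding. For the sterol regulatory element only the form TCACNCCAC was searched, and ACAT2, FDFT1, SQLE and FASN had no window. Elements of another form or place would thus have been missed. The 3 windows below are those of SREBF2 (chr22:41832855-41833154, plus strand), INSIG1 (chr7:155297628-155297927, plus strand) and LSS (chr21:46228725-46229024, minus strand). SREBF2 is printed as the only member with a match to TCACNCCAC. INSIG1 and LSS were picked because their windows held both CCAAT and the E-box. Among such members they had the widest ranges of level over the libraries. The presence of these boxes in them is therefore no result. Capitals mark the sterol regulatory element, the CCAAT box, which reads ATTGG where it lies on the reverse strand, and the E-box. The Sp1 box is left in lower case.
SREBF2: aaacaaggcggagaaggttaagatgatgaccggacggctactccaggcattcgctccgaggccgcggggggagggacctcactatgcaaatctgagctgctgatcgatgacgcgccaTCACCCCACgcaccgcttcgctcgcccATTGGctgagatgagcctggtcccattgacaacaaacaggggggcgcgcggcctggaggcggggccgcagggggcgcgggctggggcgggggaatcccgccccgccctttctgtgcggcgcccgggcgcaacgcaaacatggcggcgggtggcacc
INSIG1: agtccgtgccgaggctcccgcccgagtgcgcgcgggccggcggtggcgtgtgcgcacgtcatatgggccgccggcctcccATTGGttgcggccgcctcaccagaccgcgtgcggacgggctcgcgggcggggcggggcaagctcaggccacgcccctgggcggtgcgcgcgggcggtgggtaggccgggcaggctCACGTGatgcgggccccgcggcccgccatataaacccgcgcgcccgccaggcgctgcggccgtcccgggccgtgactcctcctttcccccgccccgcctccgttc
LSS: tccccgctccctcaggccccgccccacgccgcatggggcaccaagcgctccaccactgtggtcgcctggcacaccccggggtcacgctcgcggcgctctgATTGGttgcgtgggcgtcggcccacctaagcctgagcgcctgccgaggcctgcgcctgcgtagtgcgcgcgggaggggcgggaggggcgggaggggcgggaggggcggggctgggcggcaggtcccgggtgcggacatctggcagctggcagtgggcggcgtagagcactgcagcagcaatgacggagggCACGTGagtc
In SREBF2 the sterol regulatory element begins 133 bases before the start and the reverse CCAAT box 106 bases before it. INSIG1 has a reverse CCAAT box 170 bases and an E-box 55 bases before the start. LSS has a reverse CCAAT box 150 bases before the start and an E-box that begins 40 bases after it.

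The first 7 enzymes lead from acetyl-CoA to farnesyl diphosphate. Summed, they were at 500.4, 768, 480 and 815 FPKM, with median changes of 0.57, -0.69 and 0.73. All 3 genes that rose from BC1 to APLNR+ cells belonged to this group. They made up 42.9% of it, against 9.15% of all genes that rose at this step. MVD (chromosome 16, 88651935 to 88663161, minus strand), which makes isopentenyl diphosphate, was at 65.5, 152, 79.7 and 153 FPKM and rose 2.33-fold (95% interval 2.21 to 2.45). MVK (chromosome 12, 109573255 to 109598117, plus strand), mevalonate kinase, was at 12.8, 29.2, 17.8 and 14.8 FPKM and rose 2.29-fold (95% interval 2.03 to 2.59). Exons of MVK overlap those of MMAB on the opposite strand by 306 bases (4.72% of its exon bases). MMAB reached 28.1 FPKM, so a part of the MVK fragments is uncertain. ACAT2 (chromosome 6, 159760328 to 159779055, plus strand), the cytosolic thiolase that joins the first acetyl-CoA units, was at 52.8, 108, 26.4 and 65.4 FPKM and rose 2.03-fold (95% interval 1.95 to 2.12), a call that was lost when libraries were centred on the median gene.

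ACAT2 had the steepest fall of the 28 genes at the second step, 4.07-fold (95% interval 3.86 to 4.29) lower in CD31+CD34+ than in APLNR+ cells, and it rose 2.48-fold (95% interval 2.34 to 2.62) at the third. It was the only member of its group past the threshold at either of these steps, or 14.3% of the group at each. Among all genes 11.4% fell at the second step and 7.63% rose at the third. Exons of ACAT2 overlap those of SOD2 by 1141 bases (26.5% of its exon bases) and those of TCP1 by 397 bases. Both overlaps are on the opposite strand, and TCP1 reached 169 FPKM, so the level of ACAT2 is uncertain. MVD returned in CD43+ cells to 153 FPKM, close to its APLNR+ level of 152 FPKM, whereas MVK did not, at 14.8 FPKM against 29.2. PMVK, the kinase that acts between them, went the other way at first: it was at 17.8, 10.4, 11.6 and 17.8 FPKM, lower in APLNR+ cells by 1.70-fold (95% interval 1.44 to 2.02).

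HMGCS1, IDI1 and FDPS did not pass the threshold at any step. HMGCS1, which makes the precursor of mevalonate, was at 106, 157, 95.1 and 145 FPKM. IDI1, the isomerase of isoprenoid units, was at 42.3, 63.4, 40.4 and 72.1 FPKM. FDPS, which makes farnesyl diphosphate, was at 203, 248, 209 and 347 FPKM. All 3 were higher in APLNR+ and CD43+ cells than in the populations before them, and the interval of each fold excluded 1. FDPS pseudogenes were listed at no more than 0.353 FPKM.

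The next 11 enzymes make squalene and close and trim the sterol ring. Their summed levels were 790, 1073, 723 and 1080.4 FPKM. None of the 11 rose at the first step, where 9.15% of all genes did. At the second 3 fell (EBP, NSDHL and DHCR7, 27.3%), against 11.4% of all genes. At the third 5 rose (TM7SF2, LSS, EBP, DHCR7 and SQLE, 45.5%), against 7.63% of all genes. Among the 5148 well expressed genes these shares were 4.16%, 5.89% and 3.32%. Their median changes were 0.51, -0.85 and 0.75.

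FDFT1, squalene synthase, stands at the branch to sterols and was the steadiest of them, at 295, 324, 268 and 267 FPKM. SQLE, squalene epoxidase, was at 55.1, 71.9, 59.6 and 127 FPKM and rose 2.12-fold (95% interval 2.03 to 2.22) at the last step, a change of 1.07 that became 0.99, under the threshold, when libraries were scaled to the total without mitochondrial genes. LSS (chromosome 21, 46188141 to 46228824, minus strand), which closes the sterol ring, was at 62.6, 107, 54.5 and 163 FPKM. Squalene synthase thus stayed within a narrow range while the enzymes after it, SQLE and LSS, were highest in CD43+ cells. LSS rose 3.0-fold (95% interval 2.90 to 3.10) at the last step, after a second step that was 1.97-fold (95% interval 1.90 to 2.04) downward and just short of the threshold.

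TM7SF2 (chromosome 11, 65111845 to 65116384, plus strand), a sterol reductase that shares its reaction with LBR, was at 29.6, 20.4, 24.2 and 87.2 FPKM. Its rise into CD43+ cells, 3.60-fold (95% interval 3.32 to 3.91), was the largest of the 28 genes at that step, and unlike most members it was lower in APLNR+ cells than in BC1. DHCR7 (chromosome 11, 71428193 to 71452868, minus strand), a reductase at the end of the route, was at 99.0, 141, 53.6 and 116 FPKM. It fell 2.64-fold (95% interval 2.53 to 2.75) at the second step and rose 2.16-fold (95% interval 2.06 to 2.25) at the third. EBP, a sterol isomerase, was at 68.2, 99.3, 47.4 and 114 FPKM, and it fell 2.10-fold (95% interval 1.98 to 2.23) and then rose 2.42-fold (95% interval 2.28 to 2.56). DHCR7 and EBP thus were both low in CD31+CD34+ cells and higher in the populations before and after.

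NSDHL, which helps to remove methyl groups from the ring, was at 23.5, 46.1, 17.2 and 26.5 FPKM. It fell 2.69-fold (95% interval 2.44 to 2.96) at the second step, and its recovery by 1.54-fold (95% interval 1.39 to 1.72) stayed under the threshold. MSMO1, the oxidase of the same methyl groups, was at 51.8, 97.5, 53.1 and 48.3 FPKM and did not return to its APLNR+ level. The partner reductase HSD17B7 was at 20.3, 27.8, 21.4 and 25.6 FPKM, with wide intervals, that of the last step including 1. Its annotated copies were listed at 0. The 3 enzymes of this demethylation were all highest in APLNR+ cells, but centring the libraries on the median gene put HSD17B7 highest in CD43+ cells. CYP51A1, the first demethylase after LSS, was at 33.7, 42.6, 23.2 and 39.6 FPKM, lowest in CD31+CD34+ cells, without a change past the threshold. A transcript annotated on the same strand covers 79.4% of its exon bases, so its level is uncertain. SC5D, a desaturase of the ring, was at 50.6, 94.4, 100.4 and 65.6 FPKM and had its highest level in CD31+CD34+ cells, where 14 of the 28 genes had their lowest. It was 1.53-fold (95% interval 1.46 to 1.60) lower in CD43+ cells than there.

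**Figure D2:**
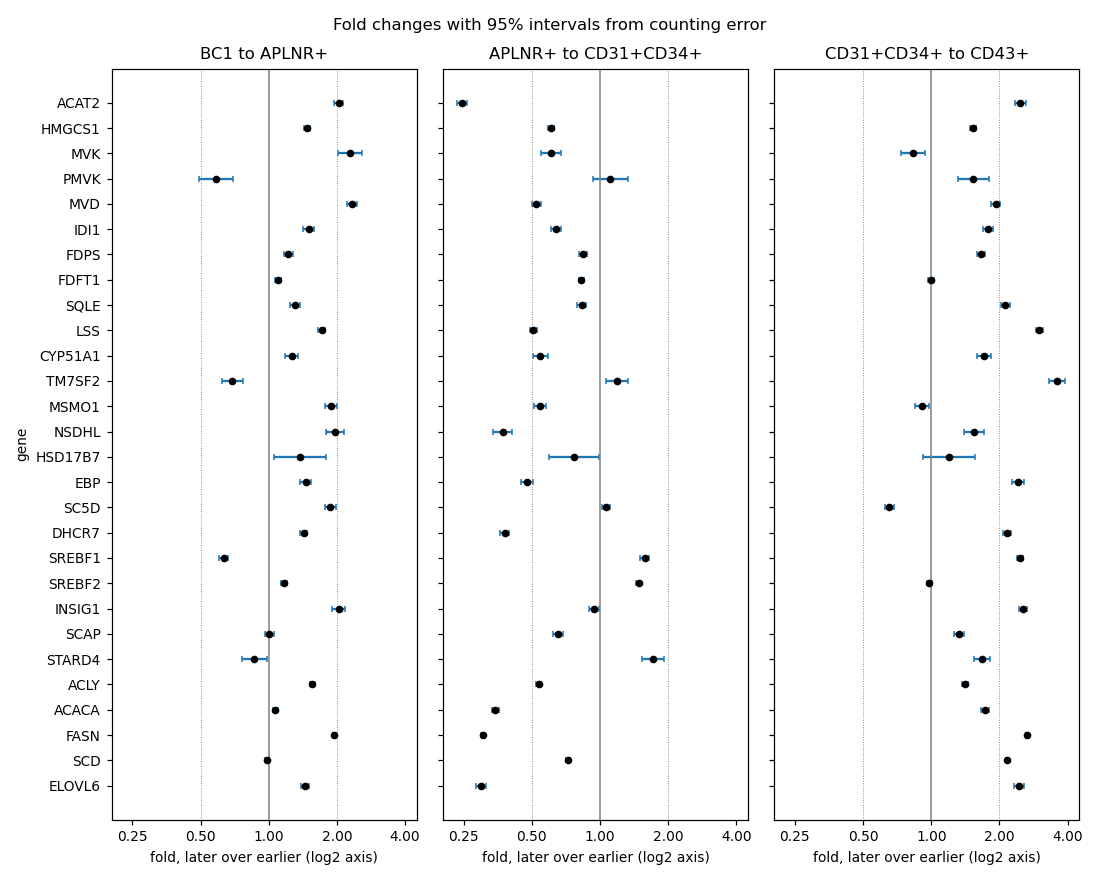
Fold of each of the 28 genes (FPKM in the later population over the earlier, log2 axis) at the 3 successive steps, with bars for the 95% interval from counting error and the genes in pathway order. Points lie mostly above 1 at the first and the third step and below 1 at the second, where 7 genes lie under the dotted line at 0.5 and none above the one at 2.

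The 5 enzymes of fatty acid synthesis had the deepest dip of the 4 groups. Their summed levels were 639, 912, 417 and 877 FPKM, and their median change at the second step was -1.49. FASN (chromosome 17, 82078333 to 82098332, minus strand), which makes palmitate, was at 195, 379.6, 116 and 306 FPKM and had the highest level of all 28 genes in APLNR+ cells. It fell 3.29-fold (95% interval 3.24 to 3.34) into CD31+CD34+ cells and rose 2.65-fold (95% interval 2.61 to 2.69) into CD43+ cells. ELOVL6 (chromosome 4, 110045846 to 110199199, minus strand), which lengthens palmitate, was at 43.2, 62.3, 18.6 and 45.4 FPKM. It fell 3.35-fold (95% interval 3.19 to 3.53) and rose 2.44-fold (95% interval 2.32 to 2.58), returning close to its BC1 level.

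ACACA (chromosome 17, 37084988 to 37406818, minus strand), which makes malonyl-CoA for FASN, was at 49.6, 53.1, 18.3 and 31.5 FPKM. It fell 2.90-fold (95% interval 2.80 to 3.01) and recovered only in part, so that in CD43+ cells it was 1.58-fold (95% interval 1.53 to 1.63) lower than in BC1, the largest decrease of the 28 over that span. ACLY, the source of cytosolic acetyl-CoA, was at 126, 196, 105 and 148 FPKM and did not pass the threshold at any step. ACLY, ACACA, FASN and ELOVL6 were each highest in APLNR+ and lowest in CD31+CD34+ cells. SCD (chromosome 10, 100347124 to 100364834, plus strand), which adds a double bond to saturated fatty acids, was at 226, 221, 159.7 and 346 FPKM. SCD did not share the early increase, with a change of -0.03, and rose 2.17-fold (95% interval 2.13 to 2.21) at the last step.

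From BC1 to CD43+ cells, 7 of the 28 genes rose and none fell, against 15.2% and 18.9% of all genes. The 7 were INSIG1, TM7SF2, LSS, SREBF1, STARD4, MVD and SQLE. A change above 0 was seen in 23 of the 28, against 46.0% of all genes, and the median change was 0.41, against -0.06 for all genes. The medians by role over this span were 1.27 for the 4 regulators and the carrier, 0.44 for the 7 early enzymes, 0.32 for the 11 of squalene and sterol and 0.23 for the 5 of fatty acids. LSS rose 2.61-fold (95% interval 2.52 to 2.70), SQLE 2.30-fold (95% interval 2.19 to 2.41) and MVD 2.34-fold (95% interval 2.23 to 2.47) over the whole course. FDFT1, MSMO1, SCAP and ACACA were lower in CD43+ cells than in BC1 with intervals that excluded 1, and those of PMVK and HSD17B7 included 1. MSMO1 and PMVK took the other sign when libraries were centred on the median gene.

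A wide spread over the 4 libraries was more common among the 28 than among well expressed genes and less common than among all genes. The highest level was at least 2-fold the lowest for 17 of the 28 (60.7%). This compares with 67.9% of all 17137 genes and 36.1% of the 5148 well expressed ones. The widest was INSIG1, from 27.1 to 131.9 FPKM, and the narrowest was FDFT1, from 267 to 324 FPKM.

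**Figure D3:**
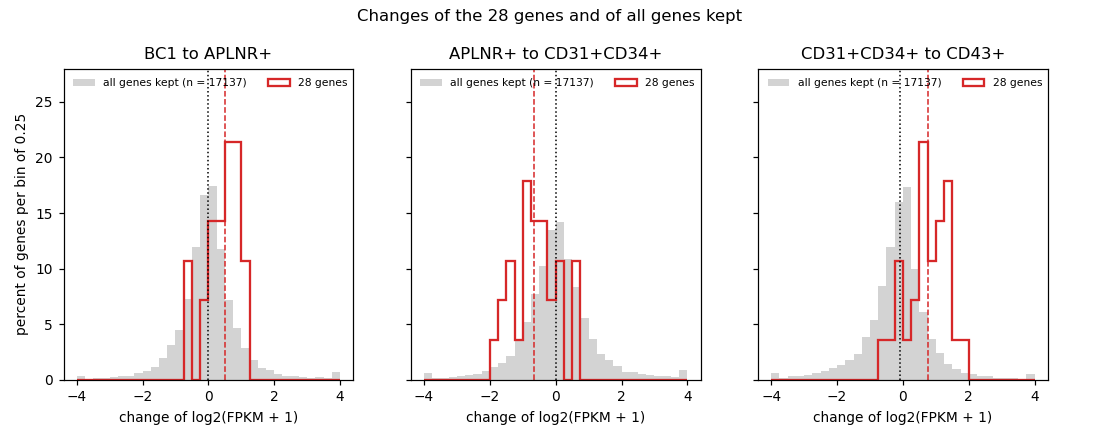
Share of genes in percent per bin of the change in log2(FPKM + 1) at each of the 3 steps, in grey for all 17137 genes (changes past 4 in size are in the end bins) and in red outline for the 28 members, with lines at the medians. The members' medians are 0.51, -0.66 and 0.75, while those of all genes lie between -0.08 and 0.01.

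Markers of other cell types were examined beside these changes. The 4 steroidogenic and hepatic genes STAR, CYP11A1, ALB and APOA1, of tissues known for their sterol metabolism, summed to 37.8, 82.5, 27.2 and 22.9 FPKM, and none was at 0. This sum was highest in APLNR+ cells, as was that of the 4 endoderm markers (1.09, 381, 70.6 and 12.7 FPKM), of which GATA6 gave most and FOXA2 stayed at or below 0.588 FPKM. Their part in the higher level of the 28 genes in APLNR+ cells was not tested. STAR and CYP11A1 stayed at or below 2.52 FPKM in all 4 libraries.

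Genes of neighbouring lipid routes were counted in the same way. Of all 17137 genes, 9.15% rose and 9.32% fell at the first step, and 13.0% rose and 11.4% fell at the second. At the third, 7.63% rose and 13.5% fell. The lists are small, so shares near these do not set a list apart. The 13 genes that process the SREBP factors had median changes of 0.09, 0.22 and -0.21, and none of them rose at any step. How many of this list fell is not reported here. Of 12 genes of the isoprenoid branches, which make ubiquinone, dolichol and protein anchors, none passed the threshold before the last step, and the median changes were -0.14, -0.19 and 0.10. At the last step 2 rose (16.7%) and 1 fell (8.33%). FNTB, a subunit of protein farnesyltransferase, was at 6.62, 6.27, 5.23 and 17.0 FPKM. The partner subunit FNTA was at 41.1, 45.3, 72.8 and 33.8 FPKM, so the subunits differed in where they were highest. PDSS1, which makes the side chain of ubiquinone, was at 8.70, 7.0, 3.21 and 7.76 FPKM. Of 8 further sterol enzymes, 1 rose at the second step and 1 at the third (12.5% each), both times FAXDC2. It was at 1.95, 1.14, 22.9 and 51.7 FPKM. The median changes of these 8 were 0.04, -0.35 and 0.11.

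Of 18 genes of sterol uptake, storage and export, 1 rose (5.56%) and 3 fell (16.7%) at the first step. At the second step 6 rose (33.3%) and 3 fell (16.7%), and at the third 1 rose (5.56%) and 5 fell (27.8%). The median changes of this list were 0.06, 0.46 and -0.49, opposite in sign to those of the 28 genes at the last 2 steps. MYLIP, a ligase that removes lipoprotein receptors, was at 13.6, 2.14, 24.8 and 10.5 FPKM, with its lowest level in APLNR+ cells. CAV1, the coat protein of caveolae, was at 8.96, 0.523, 4.75 and 0.316 FPKM, lowest in CD43+ cells. GRAMD1B, which moves sterol from the plasma membrane to the endoplasmic reticulum, was at 12, 16.8, 26.4 and 3.93 FPKM. SOAT1, which esterifies cholesterol for storage, was at 0.464, 3.32, 4.96 and 5.20 FPKM, and the lipoprotein receptor LRP8 at 21.0, 30.8, 4.84 and 10.5 FPKM. Thus GRAMD1B was highest in CD31+CD34+ cells, where the synthesis enzymes were mostly lowest, while LRP8 was lowest there.

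Among 22 genes of fatty acid elongation, desaturation and activation, 4 rose (18.2%) and 3 fell (13.6%) at the first step. At the second 4 rose and 4 fell (18.2% each), and at the third 5 rose (22.7%) and 1 fell (4.55%). Their median changes of 0.15, 0.04 and -0.05 were close to 0, and the last 2 took the other sign under some alternatives. ACSS2, which makes acetyl-CoA from acetate, was at 9.69, 56.9, 24.9 and 87.9 FPKM, the same up, down and up as most of the 28. ELOVL7, another elongase, was at 1.39, 0.0579, 1.99 and 17.0 FPKM, highest in CD43+ cells. MID1IP1, which activates acetyl-CoA carboxylase, was at 75.6, 184, 33.5 and 56.3 FPKM, highest in APLNR+ cells. ME1, malic enzyme, a source of NADPH for synthesis, was at 0.849, 2.08, 5.48 and 12.7 FPKM. The dehydratase HACD4 was at 0.407, 0.297, 2.20 and 9.10 FPKM. ELOVL7, ME1 and HACD4 all had their highest level in CD43+ cells. None of 8 genes of mitochondrial fatty acid synthesis passed the threshold at any of the 3 steps, with median changes of 0.13, -0.15 and 0.26.

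Among 17 genes of glycerolipids and lipid droplets, 3 rose (17.6%) at the first step. At the second 4 rose (23.5%) and 1 fell (5.88%), and none passed the threshold at the third. Their median changes were 0.09, 0.03 and -0.27, the last 2 of which also took the other sign under an alternative. DGAT1, which makes triglyceride, was at 21.2, 36.4, 84.1 and 55.6 FPKM, and PLIN2, which coats lipid droplets, was at 11.0, 16.5, 36.2 and 23.6 FPKM. Both were highest in CD31+CD34+ cells. PCYT2, of phosphatidylethanolamine synthesis, was at 19.0, 59.2, 21.3 and 36.9 FPKM, LPIN2, a phosphatidate phosphatase, at 6.39, 4.99, 19.5 and 9.51 FPKM, and the acyltransferase AGPAT3 at 2.59, 6.74, 10.7 and 8.68 FPKM. Among 19 genes of fatty acid uptake and oxidation, 2 rose (10.5%) and 1 fell (5.26%) at the first step. At the second 2 rose and 2 fell (10.5% each), and at the third 1 rose (5.26%) and 2 fell (10.5%). Their median changes were -0.06, 0.15 and 0.19. FABP5, a fatty acid binding protein, was at 171, 609.5, 39.9 and 63.0 FPKM, highest in APLNR+ cells, and PPARA, a nuclear receptor that drives oxidation, was at 4.73, 4.52, 14.8 and 2.74 FPKM, highest in CD31+CD34+ cells. FABP3, of the same protein family as FABP5, was at 11.7, 3.35, 1.71 and 6.40 FPKM. CPT1C, a carnitine palmitoyltransferase family member, was at 49.2, 41.9, 30.9 and 3.11 FPKM, and ACAA2, a mitochondrial thiolase, at 59.4, 75.3, 33.2 and 24.8 FPKM. Both were lowest in CD43+ cells.

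**Figure D4:**
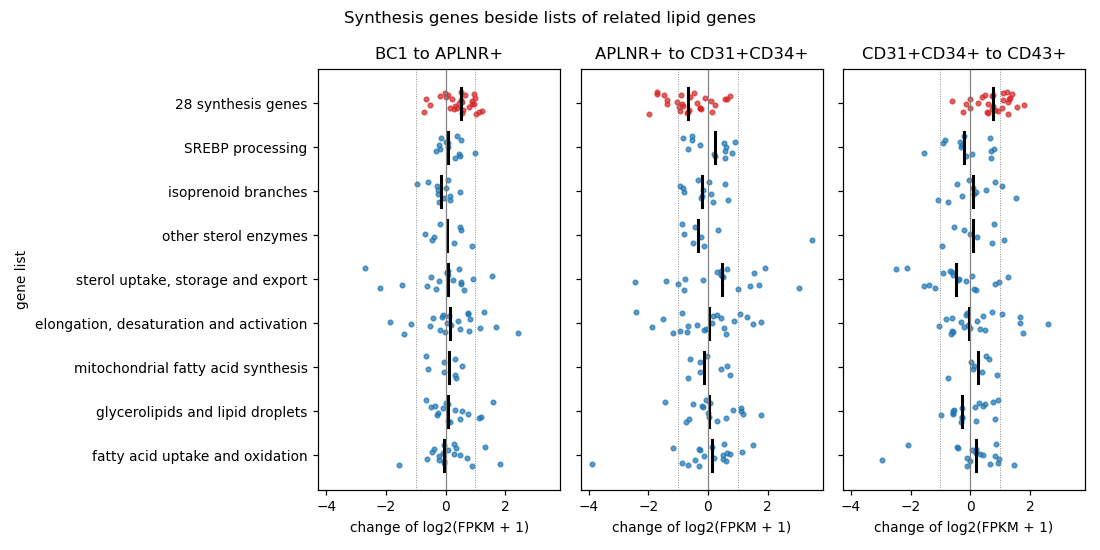
Change in log2(FPKM + 1) at the 3 steps of each of the 28 genes (red points) and of the genes of 8 lists of neighbouring lipid routes (blue points), with black bars at the medians and dotted lines at the threshold. The medians of the 28 genes lie at 0.51, -0.66 and 0.75, whereas those of sterol uptake, storage and export lie at 0.06, 0.46 and -0.49.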

How the data were processed

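RNA was sequenced from 1 library for each of 4 populations (Illumina TruSeq). Gene-level FPKM values were deposited by the authors as 1 table. The submitters' processing notes name BWA, Bowtie, RSEM and hg19, with no role or version given, but the table's loci lie on GRCh38: of 55647 identifiers with the same version in GENCODE release 29, 99.97% had the same start and end. Positions are therefore given on GRCh38, counted from 1. Whether strand was used is not given in the sources used here, and how the unit was computed was inferred from the study's plots and the values.

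Of 58365 rows, those of 1 identifier were summed (90 identifiers had several), and the 17137 genes that reached 1 FPKM in any library were kept. Changes were computed on log2(FPKM + 1), which understates the change of low genes, with a threshold of 1. With 1 library per population, no test was run. Depth was fitted from FPKM values below 0.6 of genes with a single transcript of at least 1000 bases, and 84.9% to 86.4% of them then fell within 0.1 of a whole number of fragments. Approximate fragments used the median length of each gene's basic coding transcripts, and they gave exact Clopper-Pearson 95% intervals, which cover counting error only. Depth fitting, calls and intervals were tested on simulated counts that held counting error only. The simulation used the known length of each gene, so it did not test error from the median transcript length. Python 3.11.15, pandas 2.3.3, numpy 2.4.6, scipy 1.17.1 and matplotlib 3.10.9 were used.

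The 28 members, the 8 neighbouring lists and the marker lists were chosen with earlier results of these data known. All members are described, and of each neighbouring list up to 5 genes with the widest range among those past the threshold at any step, except 1 gene that is not reported here. The promoters of INSIG1 and LSS were chosen after their values were seen. They held both CCAAT and CACGTG and had the widest ranges of level among the members that did. Alternatives were another pseudocount, other filters and thresholds, the highest row of an identifier, other scalings, the mean in place of the median and, added after seeing the data, leaving out ACAT2.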

Additional observations from a re-analysis of the deposited data

How the results depend on the processing

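No median change of the 28 genes reversed its direction under the alternatives run. Pseudocount 0.1, both filters on low values, the highest row of an identifier and leaving out ACAT2 kept all counts within 1.5 times. With a threshold of 0.5, 15 genes rose and 3 fell at the first step, 3 rose and 16 fell at the second, 20 rose and 1 fell at the third, and 13 rose and 1 fell from BC1 to CD43+ cells. With a threshold of 2, none rose at the first step, fell at the second or rose at the third (0 each), and 1 rose from BC1 to CD43+ cells. For all genes the upper quartile of change was 0.40 at the first step, 0.30 at the third and 0.57 from BC1 to CD43+ cells. Their lower quartile at the second was -0.48. Shares of all genes past 0.5 or 2 were not computed. The mean of the 28 genes in place of their median was 0.43 at the first step and 0.57 from BC1 to CD43+ cells. Centring on the median gene gave median changes of 0.93 at the third step and 0.51 from BC1 to CD43+ cells, and left 1 gene highest in CD31+CD34+ cells. Scaling to the total without mitochondrial genes gave a median change of 0.67 at the third step and put 2 genes highest in BC1. Shares of all genes highest in each library were not computed under either scaling. Of 112 changes of single genes, 28 passed the threshold, and 27 of these did so under each scaling, all but ACAT2 at the first step under centring and all but SQLE at the third under the mitochondrial scaling. Signs of 6 small changes turned under centring and of 1 under the mitochondrial scaling. Among the neighbouring lists, the median of elongation, desaturation and activation went from 0.04 to -0.10 at the second step without a filter and from -0.05 to 0.11 at the third with a filter of 5 FPKM, and that of glycerolipids and lipid droplets from -0.27 to 0.16 at the third with the same filter. The cause was not tested. No paired analysis was possible because each population had 1 library, and for the same reason none could be left out. By the approximate fragments, counting limited HSD17B7 most, with the fewest of the 28 genes, 98.7 in BC1. That number rests on a median transcript length of 507 bases, the shortest of the 28. A longer length would give more fragments and narrower intervals.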
